A study of Sus scrofa with 24 samples.

Results

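The comparison of SB203580 plus flagellin with PBS at 24 h was made in cultured bronchial epithelium of pigs, and it rests on 8 of the 24 libraries of the study. The 4 libraries of SB203580 plus flagellin came from cells that were kept for 1 h in 20 µM SB203580 and then given 100 ng/ml flagellin for 24 h. The 4 PBS libraries came from cells that were kept for 1 h in the solvent DMSO and then given PBS for 24 h. The flagellin libraries set beside them (4 at 24 h) had DMSO and then 100 ng/ml flagellin, and the libraries at 2 h (4 of SB203580 plus flagellin and 4 of PBS) had the same treatments for the shorter time. All cells were wild type, were taken from the bronchi of pigs of 1 month of age, and were differentiated at an air-liquid interface, a culture in which the apical surface of the epithelium faces air. The labels used here name no group that had SB203580 without flagellin, so the difference from PBS holds the inhibitor and flagellin together. The libraries were chosen by treatment and time alone, without any measured value, and each SB203580 plus flagellin library was matched to the PBS library with the same replicate number.

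Flagellin is the protein of the bacterial flagellum. It is recognised by TLR5 on airway epithelium, and the signal runs through MYD88 and TAK1 to the transcription factor NF-kB and to the MAP kinases, p38 among them. SB203580 blocks the ATP site of the p38 alpha and beta kinases, which lie downstream of the kinases MKK3 and MKK6 and act in part by stabilising cytokine mRNAs. The aryl hydrocarbon receptor (AHR) is a ligand-activated transcription factor best known for switching on the cytochrome P450 genes CYP1A1 and CYP1B1.

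The 8 libraries held 29956872 to 34586749 counts in pig genes and 15878 to 16524 genes with a count. The detection floor, taken as 3 counts in a library, came to 0.0867 to 0.100 counts per 1000000 (CPM) and covers counting error only. Transcripts of the mitochondrial genome took 3.03% to 5.59% of the counts. The epithelial genes TP63 (basal cells) and FOXJ1 (ciliated cells) had counts in all 8 libraries, and the leukocyte genes CD3E and PTPRC stood at 0 to 0.0323 CPM. Replicates 1 and 2 differed in baseline from replicates 3 and 4. EIF1AY, a gene of the Y chromosome, stood at 17.9 and 19.8 CPM in replicates 1 and 2 of SB203580 plus flagellin and at 23.8 and 21.8 CPM in those of PBS, and at 0 in replicates 3 and 4 of both groups. Replicates 1 and 2 thus did not come from the same animals as replicates 3 and 4. Whether replicates 1 and 2, or 3 and 4, were different animals or different cultures is not stated in the labels. The 4 matched pairs may therefore hold fewer than 4 animals. P-values here refer to the spread among the libraries, part of which may be technical.

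At 24 h, 28 of 14172 tested genes were higher with SB203580 plus flagellin than with PBS and none was lower. Words such as rose, raised and fell refer to this difference from PBS, not to a change over time. The 28 were 0.198% of the genes tested in the upward direction, and the share lowered was 0%. The genes raised most were the AHR targets CYP1A1 and CYP1B1 and the p38-activating kinase MAP2K6, and with them rose genes of peptide trimming and the immunoproteasome (ERAP1, ERAP2, PSMB10), the inflammatory protease CASP1, the calgranulin S100A12, the surface protein CD83 and the transcription factor IRF1. In all, 12 of the 28 rose by at least 2-fold. All 28 were higher in 4 of 4 matched pairs, as were 10.1% of all tested genes, while 7.52% were lower in 4 of 4. The 28 were called on these same pairs, so their agreement between pairs is favoured by the selection. The calls are adjusted p-values under 0.05 (edgeR's quasi-likelihood F test with the replicate number within each time as a block, Benjamini-Hochberg over all tested genes), and the fold changes are log2 values of SB203580 plus flagellin over PBS with their standard error (SE). At an unadjusted p under 0.05, 1079 genes were higher (7.61%) and 671 lower (4.73%), and these are not calls. Of all tested genes 52.6% had a positive and 47.4% a negative log2 fold change. The gene lists below are read against these shares.

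The number of calls depended on the libraries and on the matching. Without the block, 1 gene was called (EXT1), and in replicates 3 and 4 alone 1 gene was called (MAP2K6), against 41 in replicates 1 and 2 alone. Leaving out replicates 1 and 2 of SB203580 plus flagellin left 0 calls, with 836 genes at an unadjusted p under 0.05. Leaving out a single library gave 6 calls without PBS replicate 2, 7 without PBS replicate 1 and 13 without PBS replicate 4. It gave 10, 16 and 18 calls without replicates 1, 2 and 3 of SB203580 plus flagellin, and 44 without replicate 4. The genes called in each of these 8 leave-outs were CYP1B1, NRAP and TIMP4, with highest adjusted p-values of 0.0319, 0.0225 and 0.0468. All 28 kept a positive log2 fold change under every alternative fitted, but these fits reuse libraries on which the 28 were called.

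CYP1A1 and CYP1B1 oxidise aromatic hydrocarbons and other lipophilic compounds. CYP1A1 (chromosome 7, 58802880 to 58809775, plus strand) stood at 170, 68.8, 21.5 and 14.4 CPM in replicates 1 to 4 of SB203580 plus flagellin, against 10.5, 9.40, 2.29 and 4.29 CPM in those of PBS. Every SB203580 plus flagellin library lay above every PBS library, and the log2 fold change was 3.01 ± 0.51 (SE, edgeR adjusted p = 0.0263). CYP1B1 (chromosome 3, 102195741 to 102206375, plus strand) stood at 239, 165, 92.3 and 77.0 CPM with SB203580 plus flagellin, against 34.7, 35.1, 23.2 and 19.7 CPM in PBS. These groups did not overlap either, with a log2 fold change of 2.26 ± 0.27 (SE, edgeR adjusted p = 0.00461). Of the 11 tested genes of the AHR list these 2 rose, where 0.198% of all genes were raised. At an unadjusted p under 0.05, 1 further gene was higher (background 7.61%) and none was lower (background 4.73%). That gene was NFE2L2, which encodes the oxidant-response factor NRF2, with a log2 fold change of 0.47 (edgeR adjusted p = 0.141). The list's median log2 fold change was 0.47, beside 0.01 for all genes tested. It was 0.72 in replicates 1 and 2 and 0.13 in replicates 3 and 4. For SB203580 plus flagellin over flagellin the list's median was 0.05, and for flagellin over PBS it was 0.07.

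The receptor gene AHR itself had a log2 fold change of -0.17 (edgeR adjusted p = 0.547). None of the other targets on the list passed the test. NQO1, a quinone reductase, stood at 1091 and 987 CPM in replicates 1 and 2 of SB203580 plus flagellin and at 145 and 110 CPM in replicates 3 and 4, against 317, 348, 136 and 114 CPM in PBS. It was about as high as its matched PBS library in replicates 3 and 4 and above it in replicates 1 and 2, and the difference over all 4 pairs did not pass the test (edgeR adjusted p = 0.590). The receptor's repressor AHRR stood at 12.02, 10.6, 1.27 and 1.42 CPM with SB203580 plus flagellin, against 4.75, 4.72, 0.371 and 4.45 CPM in PBS, above its matched library in replicates 1 to 3 and below it in replicate 4 (edgeR adjusted p = 0.702).

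MAP2K6 encodes MKK6, the kinase that phosphorylates and activates p38. The gene (chromosome 12, 10897104 to 11018943, minus strand) stood at 5.96, 6.27, 18.1 and 15.8 CPM with SB203580 plus flagellin, against 0.578, 0.678, 5.32 and 3.77 CPM in PBS. The groups did not overlap, although the baseline of replicates 3 and 4 was well above that of replicates 1 and 2. The log2 fold change was 2.505 ± 0.41 (SE, edgeR adjusted p = 0.0152). MAP2K6 was past the threshold within replicates 1 and 2 (3.28, adjusted p = 0.000308) and within replicates 3 and 4 (1.91, adjusted p = 0.0239).

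Among the 22 tested genes of the p38 list MAP2K6 was the 1 gene called, where 0.198% of all genes were raised. At an unadjusted p under 0.05 there were 3 higher members, MAP2K6 included (background 7.61%), and 1 lower, a share near the background of 4.73%. MAPK14, which encodes p38 alpha, stood at 93.4, 93.9, 120 and 112 CPM with SB203580 plus flagellin, against 76.8, 73.4, 110 and 109 CPM in PBS, a log2 fold change of 0.20 (edgeR adjusted p = 0.354). DUSP1, a phosphatase that switches p38 off, had 141, 130, 118 and 120 CPM with SB203580 plus flagellin, against 141, 151, 174 and 170 CPM in PBS, and its log2 fold change of -0.32 did not pass (edgeR adjusted p = 0.402). The flagellin receptor gene TLR5 stood at 0.969, 1.36, 2.24 and 2.82 CPM with SB203580 plus flagellin, against 1.44, 1.42, 2.35 and 2.49 CPM in PBS. Its log2 fold change was -0.11, with a 95% interval of -0.64 to 0.43. None of the 21 tested TLR5 signalling components was past an unadjusted p of 0.05 in either direction.

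**Figure D1:**
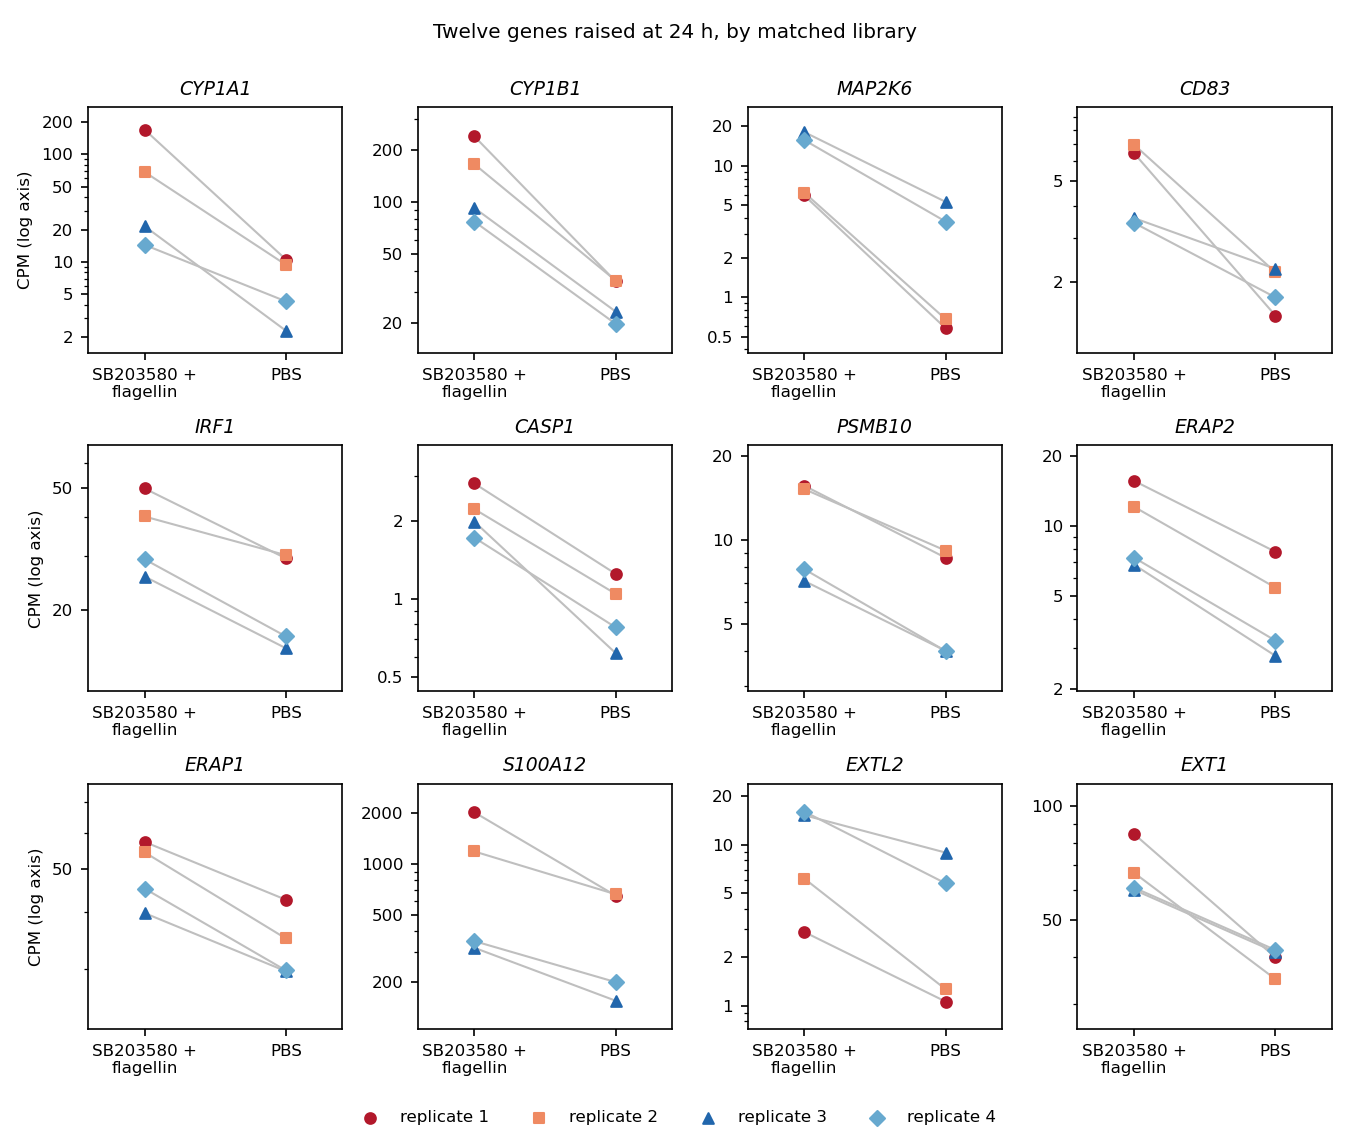
Level in CPM (log axis, a scale of its own in each panel) of 12 raised genes in the 4 libraries of SB203580 plus flagellin (left of each panel) and of PBS (right) at 24 h, with lines joining libraries of the same replicate number. Every line falls towards PBS, while the baselines of replicates 1 and 2 and of replicates 3 and 4 stand apart for genes such as MAP2K6, EXTL2 and S100A12.

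Genes that prepare peptides for MHC class I were a second group among those that rose. PSMB10 encodes a catalytic subunit of the immunoproteasome. It stood at 15.6, 15.2, 7.14 and 7.86 CPM with SB203580 plus flagellin, against 8.64, 9.16, 4.02 and 4.01 CPM in PBS, a log2 fold change of 0.84 ± 0.12 (SE, edgeR adjusted p = 0.00924). The pooled ranges overlapped, but each library lay above its matched PBS library. ERAP1 and ERAP2 encode the aminopeptidases that trim peptides in the endoplasmic reticulum, and they lie near each other on chromosome 2 (103380001 to 103408759, minus strand, and 103510717 to 103564435, plus strand). ERAP2 stood at 15.6, 12.1, 6.84 and 7.33 CPM with SB203580 plus flagellin, against 7.77, 5.46, 2.78 and 3.24 CPM in PBS, a log2 fold change of 1.15 ± 0.17 (SE, edgeR adjusted p = 0.00924). ERAP1 stood at 57.2, 54.3, 39.9 and 45.2 CPM with SB203580 plus flagellin, against 42.7, 35.1, 29.7 and 29.8 CPM in PBS, a log2 fold change of 0.52 ± 0.08 (SE, edgeR adjusted p = 0.0141). Both genes overlapped in range between the groups and were higher in each matched pair. How reads shared by such related genes were counted is not given in the sources used here.

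On the list of antigen processing and MHC class I, PSMB10 and ERAP1 were the members called of 14 tested, where 0.198% of all genes were raised, and ERAP2 is not on that list. At an unadjusted p under 0.05, 5 members were higher (background 7.61%) and 1 was lower (background 4.73%), and the list's median log2 fold change was 0.30. TAPBP, which encodes the peptide-loading protein tapasin, had a log2 fold change of 0.35 (edgeR adjusted p = 0.130) and was higher in 4 of 4 pairs. The lower member was CALR, a chaperone of the endoplasmic reticulum, with a log2 fold change of -0.30 (edgeR adjusted p = 0.124) and lower values in 4 of 4 pairs.

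IRF1 encodes an interferon regulatory factor that binds promoters of antigen processing genes. The gene (chromosome 2, 134776124 to 134783819, minus strand) stood at 49.7, 40.3, 25.7 and 29.2 CPM with SB203580 plus flagellin, against 29.4, 30.2, 15.002 and 16.4 CPM in PBS. The ranges overlapped, each library lay above its matched PBS library, and the log2 fold change was 0.70 ± 0.12 (SE, edgeR adjusted p = 0.0212). SP110, which encodes an interferon-induced protein of nuclear bodies, stood at 26.6, 24.5, 24.3 and 21.1 CPM with SB203580 plus flagellin, against 19.1, 19.3, 16.6 and 15.7 CPM in PBS, with no overlap and a log2 fold change of 0.45 ± 0.08 (SE, edgeR adjusted p = 0.0263). The neighbouring gene SP140, named here by its position, overlaps SP110 on the other strand. It was also called, and reads in the overlap cannot be assigned to either because the use of strand in counting is not given.

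Of the 36 tested interferon-stimulated genes, IRF1 and SP110 rose and none fell. In total 34 had a positive log2 fold change, as had 52.6% of all genes tested, and 20 were higher in 4 of 4 pairs, as were 10.1% of all genes. At an unadjusted p under 0.05, 6 were higher, where the background was 7.61%, and none was lower. The list's median was 0.32, and it was 0.32 in replicates 1 and 2 and 0.33 in replicates 3 and 4. PARP14, a mono-ADP-ribosyltransferase, stood at 17.5, 22.1, 14.0 and 10.2 CPM with SB203580 plus flagellin, against 9.57, 11.7, 7.83 and 5.82 CPM in PBS, just short of the threshold (log2 fold change 0.86, edgeR adjusted p = 0.0837). BST2, which tethers enveloped virus particles to the cell surface, had a log2 fold change of 1.05 (edgeR adjusted p = 0.195).

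CASP1 encodes the inflammasome protease that matures interleukin 1 beta. It stood at 2.80, 2.23, 1.99 and 1.73 CPM with SB203580 plus flagellin, against 1.25, 1.05, 0.619 and 0.778 CPM in PBS. The groups did not overlap, and the log2 fold change was 1.26 ± 0.23 (SE, edgeR adjusted p = 0.0305). The gene ENSSSCG00000014997, for which no symbol was found, lies just beside CASP1 on chromosome 9 (35167569 to 35185804, beside 35187561 to 35200085, both on the minus strand) and was called as well, with a log2 fold change of 0.49. S100A12 encodes a calcium-binding protein secreted by inflamed epithelium and neutrophils. It stood at 2022.5, 1185, 318 and 348 CPM with SB203580 plus flagellin, against 648, 661, 154 and 199 CPM in PBS, a log2 fold change of 1.09 ± 0.16 (SE, edgeR adjusted p = 0.00924). Its relatives S100A8 and S100A9 (S100A9 was named by position) had log2 fold changes of 0.82 (edgeR adjusted p = 0.201) and 1.14 (edgeR adjusted p = 0.221), each higher in 4 of 4 pairs. S100A12 was the 1 member called of 23 tested airway antimicrobial and acute-phase genes. In that list 12 genes had a positive and 11 a negative log2 fold change, and the median was 0.01. At an unadjusted p under 0.05, 5 members were higher (background 7.61%) and 2 were lower (background 4.73%).

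CD83, a surface protein of activated antigen-presenting cells that epithelium can also make, stood at 6.46, 6.98, 3.58 and 3.43 CPM with SB203580 plus flagellin, against 1.48, 2.19, 2.26 and 1.74 CPM in PBS. The groups did not overlap, and the log2 fold change was 1.33 ± 0.24 (SE, edgeR adjusted p = 0.0263). The NF-kB feedback genes, which NF-kB switches on and many of which restrain it, did not reach the threshold one by one. Of 22 tested, 21 had a positive log2 fold change, 10 were higher at an unadjusted p under 0.05 against a background of 7.61%, none was lower at that level, and 14 were higher in 4 of 4 pairs. The list's median was 0.31, and it was 0.36 in replicates 1 and 2 and 0.29 in replicates 3 and 4. NFKBIA, which encodes the inhibitor IkB alpha, stood at 318, 222, 131 and 156 CPM with SB203580 plus flagellin, against 153, 168, 87.8 and 91.8 CPM in PBS (log2 fold change 0.71, edgeR adjusted p = 0.182). TNFAIP3, the ubiquitin-editing enzyme A20, stood at 197, 160, 64.9 and 87.6 CPM with SB203580 plus flagellin, against 117, 114, 45.5 and 79.1 CPM in PBS (log2 fold change 0.47, edgeR adjusted p = 0.160).

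None of the tested cytokine or chemokine genes passed the threshold. Of the 18 cytokines and colony-stimulating factors, 7 were higher at an unadjusted p under 0.05 (background 7.61%) and none was lower, and the list's median log2 fold change was 0.58. Among these 7, IL6, IL10, IL20 and IL19 had mean PBS levels of 0.031, 0.078, 0.055 and 0.14 CPM, under or near the detection floor. The count and the median thus rest in part on sparse genes. CSF1, the macrophage growth factor, came closest. It stood at 17.9, 19.2, 31.8 and 36.03 CPM with SB203580 plus flagellin, against 6.71, 7.18, 18.1 and 20.8 CPM in PBS, a log2 fold change of 1.09 (edgeR adjusted p = 0.0561). IL1A, the alarmin interleukin 1 alpha, stood at 100.4, 65.1, 48.9 and 53.6 CPM with SB203580 plus flagellin, against 53.01, 54.9, 28.2 and 37.9 CPM in PBS (log2 fold change 0.62, edgeR adjusted p = 0.101). IL6 was sparse, at 0.108, 0.452, 0.108 and 0.112 CPM with SB203580 plus flagellin, against 0, 0.0308, 0.0309 and 0.0622 CPM in PBS. Replicate 2 of SB203580 plus flagellin lay well above the detection floor, the other 3 libraries of that group just above it and the PBS libraries under it. The edgeR adjusted p was 0.153, and no fold is given at that depth.

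CXCL8, which attracts neutrophils, stood at 64.6, 83.0, 14.4 and 21.5 CPM with SB203580 plus flagellin, against 30.6, 44.9, 8.01 and 15.9 CPM in PBS. It was higher in 4 of 4 pairs, and the log2 fold change of 0.79 did not pass the test (edgeR adjusted p = 0.411, 95% interval -0.02 to 1.60). CCL20, an attractant of immature dendritic cells that was named by position, stood at 48.2, 24.3, 1.05 and 2.70 CPM with SB203580 plus flagellin, against 8.99, 10.5, 0.835 and 1.68 CPM in PBS (log2 fold change 1.42, edgeR adjusted p = 0.342). The prostaglandin synthase gene PTGS2 stood at 123, 46.9, 51.8 and 65.7 CPM with SB203580 plus flagellin, against 69.0, 64.1, 70.6 and 70.3 CPM in PBS. It was higher in 1 of 4 pairs, with a log2 fold change of 0.03 and a 95% interval of -0.83 to 0.90.

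Further genes among the 28 were EXTL2, EXT1, SFXN3 and AMT. EXTL2, a glycosyltransferase that acts on the linker of heparan sulfate chains, stood at 2.87, 6.17, 15.3 and 16.1 CPM with SB203580 plus flagellin, against 1.06, 1.26, 8.94 and 5.76 CPM in PBS (log2 fold change 1.46 ± 0.24 SE, edgeR adjusted p = 0.0141). EXT1, a subunit of the heparan sulfate polymerase, stood at 84.6, 66.7, 60.1 and 60.9 CPM with SB203580 plus flagellin, against 39.8, 34.9, 41.1 and 41.7 CPM in PBS, with no overlap. It was singled out after its values were seen, since it was the gene called with and without the block (log2 fold change 0.78 ± 0.13 SE, edgeR adjusted p = 0.0141 with the block and 0.0266 without). SFXN3, which encodes a mitochondrial serine carrier, stood at 6.67, 19.7, 36.8 and 33.8 CPM with SB203580 plus flagellin, against 3.69, 5.06, 18.7 and 18.2 CPM in PBS (log2 fold change 1.18, edgeR adjusted p = 0.00924). AMT, a component of the mitochondrial glycine cleavage system, had a log2 fold change of 1.08 (edgeR adjusted p = 0.0141). No member of the ATF4 and unfolded protein response list was called among 26 tested, and its median log2 fold change was 0.11. At an unadjusted p under 0.05, 4 members were higher (background 7.61%) and 3 were lower (background 4.73%). The higher members were the asparagine synthetase gene ASNS and the serine synthesis enzyme genes PHGDH, PSAT1 and PSPH, with log2 fold changes of 0.32, 1.01, 0.74 and 0.46 (edgeR adjusted p = 0.195, 0.0716, 0.145 and 0.105). The lower members were the endoplasmic reticulum chaperone genes HSPA5 and HSP90B1 and the gene CRELD2, with log2 fold changes of -0.35, -0.18 and -0.37 (edgeR adjusted p = 0.195, 0.319 and 0.165).

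The remaining genes of at least 2-fold among the 28 were NRAP and TIMP4. NRAP, an actin-anchoring protein known from striated muscle, had the smallest adjusted p of all genes. It stood at 6.42, 5.75, 9.10 and 8.36 CPM with SB203580 plus flagellin, against 2.505, 2.00, 3.65 and 3.61 CPM in PBS, with no overlap (log2 fold change 1.35 ± 0.15 SE, edgeR adjusted p = 0.002505). TIMP4, an inhibitor of matrix metalloproteinases, stood at 24.3, 29.0, 19.4 and 17.7 CPM with SB203580 plus flagellin, against 11.8, 10.8, 9.22 and 12.4 CPM in PBS, also without overlap (log2 fold change 1.01 ± 0.15 SE, edgeR adjusted p = 0.00924). RTN4RL1, a receptor related to the Nogo receptor, and NFE2L3, a transcription factor of the NRF family, rose by 0.85 and 0.79 on the log2 scale. The other 9 called genes lay outside the naming rule and are listed after their values were seen. They are ENSSSCG00000033750 (no symbol found), NXPE3, SLC46A2, the purine synthesis enzyme ATIC, SP140, the kinase CAMKK2, ALDH9A1 (named by position), the RNA helicase MOV10 and ENSSSCG00000014997, and their log2 fold changes ran from 0.38 to 0.79.

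**Figure D2:**
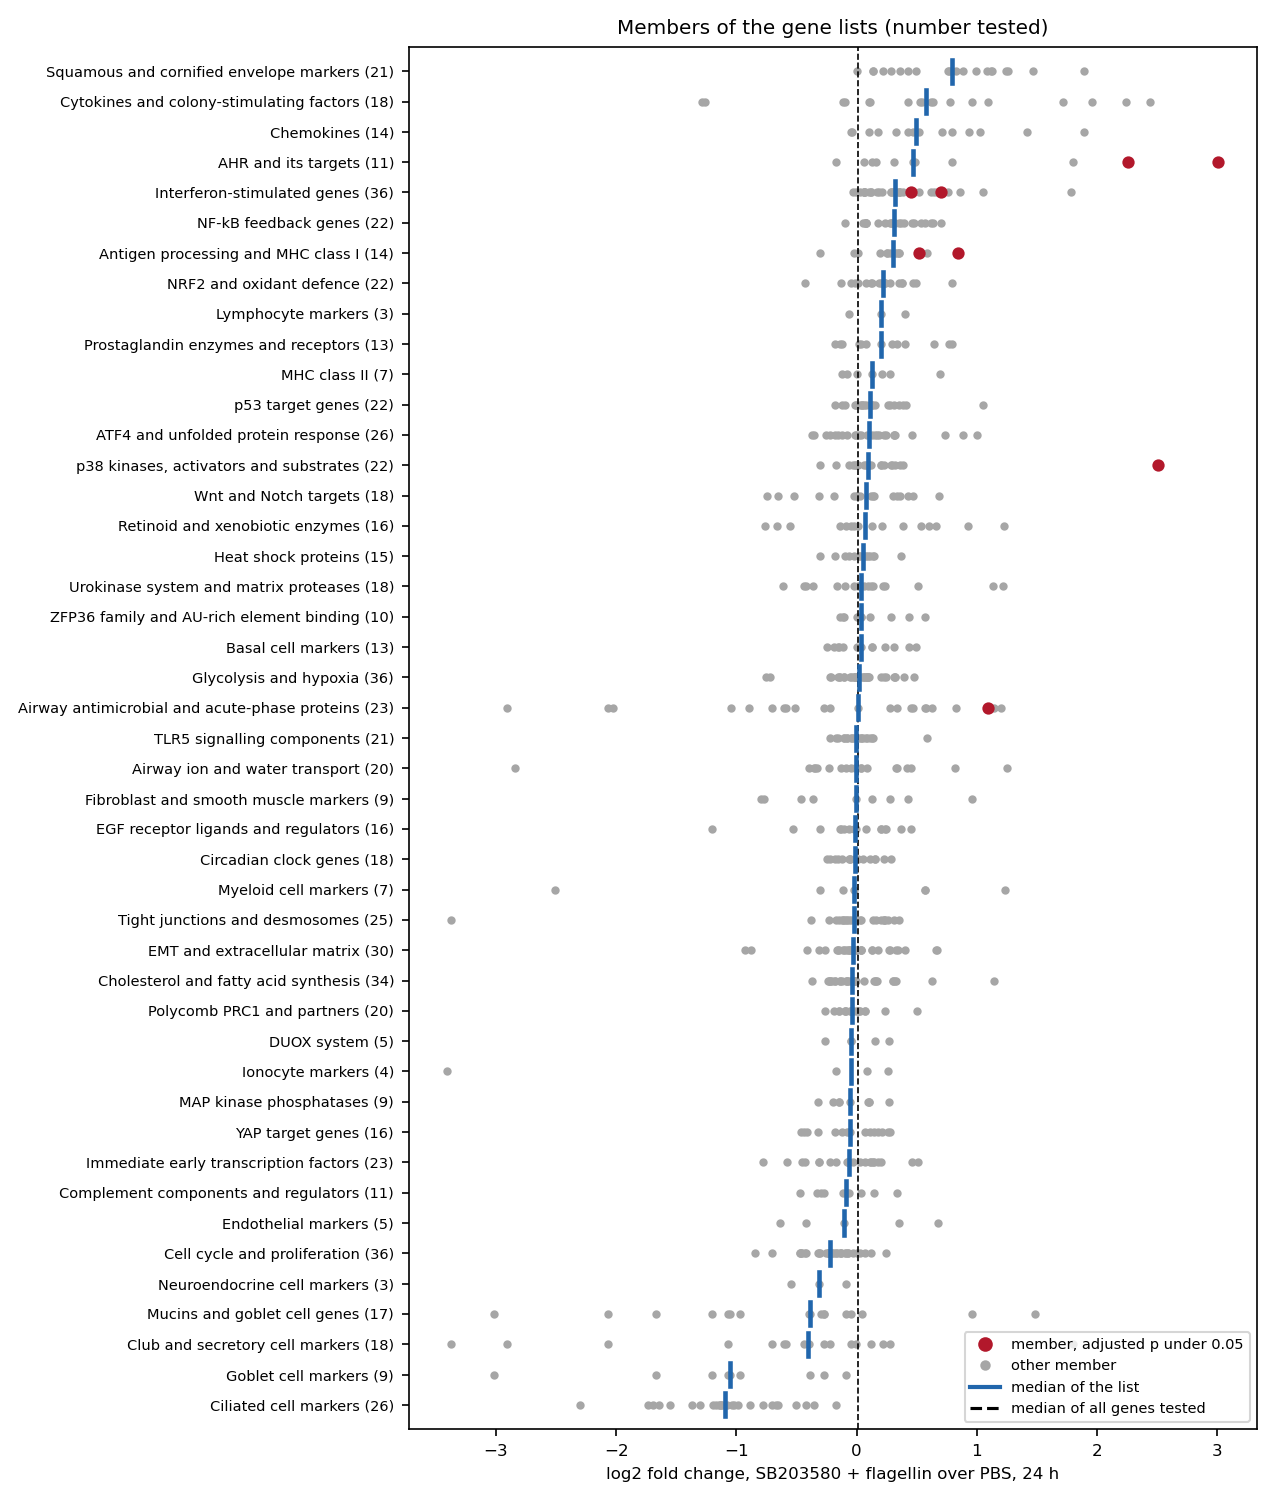
Log2 fold change of SB203580 plus flagellin over PBS at 24 h (horizontal axis) for each tested member of the gene lists, with red points for members past an adjusted p of 0.05, a blue bar at each list's median and a dashed line at the median of all genes tested (0.01). The medians of the squamous, cytokine and chemokine lists (0.79, 0.58 and 0.49) lie farthest to the right, and the ciliated and goblet cell markers lie at the bottom, with medians of -1.10 and -1.06 and no member called.

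Markers of ciliated and goblet cells had lower median levels with SB203580 plus flagellin than with PBS, and no single marker passed the threshold. All 26 tested ciliated cell markers had a negative log2 fold change and 12 were lower at an unadjusted p under 0.05, where the background was 4.73%. The median was -1.10 over the 4 pairs, -2.03 in replicates 1 and 2 and -0.29 in replicates 3 and 4. FOXJ1, the transcription factor of ciliated cells, stood at 6.96, 3.46, 3.47 and 3.65 CPM with SB203580 plus flagellin, against 19.0, 15.8, 6.06 and 6.91 CPM in PBS (log2 fold change -1.30, edgeR adjusted p = 0.287). Goblet cell markers had a median of -1.06, with 5 of 9 lower at an unadjusted p under 0.05. The gel-forming mucin gene MUC5AC, named by position, stood at 846, 607, 258 and 368 CPM with SB203580 plus flagellin, against 2307, 1733, 391 and 544 CPM in PBS. It was lower in 4 of 4 pairs, and its log2 fold change of -1.06 did not pass (edgeR adjusted p = 0.296). Flagellin alone over PBS gave medians of -0.90 for ciliated and -1.38 for goblet cell markers, and SB203580 plus flagellin over flagellin gave -0.22 and 0.31, in comparisons that share libraries. In the separate libraries of 2 h, SB203580 plus flagellin over PBS gave medians of -0.65 for ciliated and -0.03 for goblet cell markers. In these bulk libraries fewer cells of a type and less RNA per cell cannot be told apart.

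Squamous and cornified envelope markers mark keratinising epithelium. Their summed level was 14778, 10056, 4858 and 3911 CPM in replicates 1 to 4 of SB203580 plus flagellin, against 4672, 5691, 4738 and 4062 CPM in PBS. The difference was largest in replicate 1, where their mean log2(CPM + 1) was 8.23 with SB203580 plus flagellin and 6.13 in PBS, while in replicate 2 it was 7.02 and 6.57. The median log2 fold change of the 21 tested markers was 0.79, with 1.85 in replicates 1 and 2 and -0.11 in replicates 3 and 4. Of these markers 1 was higher at an unadjusted p under 0.05, where the background was 7.61%, and none passed the edgeR test of the difference between the sets of replicates. Flagellin alone over PBS gave a squamous median of 0.66, and SB203580 plus flagellin over flagellin gave 0.03, in comparisons that share libraries. In replicate 2 of flagellin alone the summed squamous level was 20351 CPM. Summed ciliated cell markers were 53.7, 45.4, 86.6 and 85.3 CPM with SB203580 plus flagellin, against 164, 137, 92.2 and 96.2 CPM in PBS.

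Of the 7 tested myeloid cell markers, 3 had a positive and 4 a negative log2 fold change, and none was called. Their median was -0.02, with -0.48 in replicates 1 and 2 and 0.29 in replicates 3 and 4. CD14, a co-receptor for bacterial lipopolysaccharide, stood at 119, 26.2, 9.97 and 12.5 CPM with SB203580 plus flagellin, against 19.2, 16.9, 6.99 and 6.41 CPM in PBS (log2 fold change 1.24, edgeR adjusted p = 0.0999). CSF1R, the receptor of CSF1, stood at 0.323, 0.0646, 0.0269 and 0.0279 CPM with SB203580 plus flagellin, against 1.48, 1.36, 0.0309 and 0.0311 CPM in PBS. It was under the floor in replicates 3 and 4 of both groups and in replicate 2 of SB203580 plus flagellin. Its log2 fold change of -2.51 (edgeR adjusted p = 0.141) is limited by that depth. The summed level of the 14 markers found in the table, 2 of them at 0 in all 8 libraries, was 175, 76.1, 60.3 and 61.3 CPM with SB203580 plus flagellin, against 55.1, 57.4, 50.5 and 39.9 CPM in PBS, and CD14 and CD68 were the most abundant of them. Of the 28 raised genes 20 had a larger log2 fold change in replicates 1 and 2 and 8 in replicates 3 and 4, and the part of the cell makeup in these values was not tested.

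**Figure D3:**
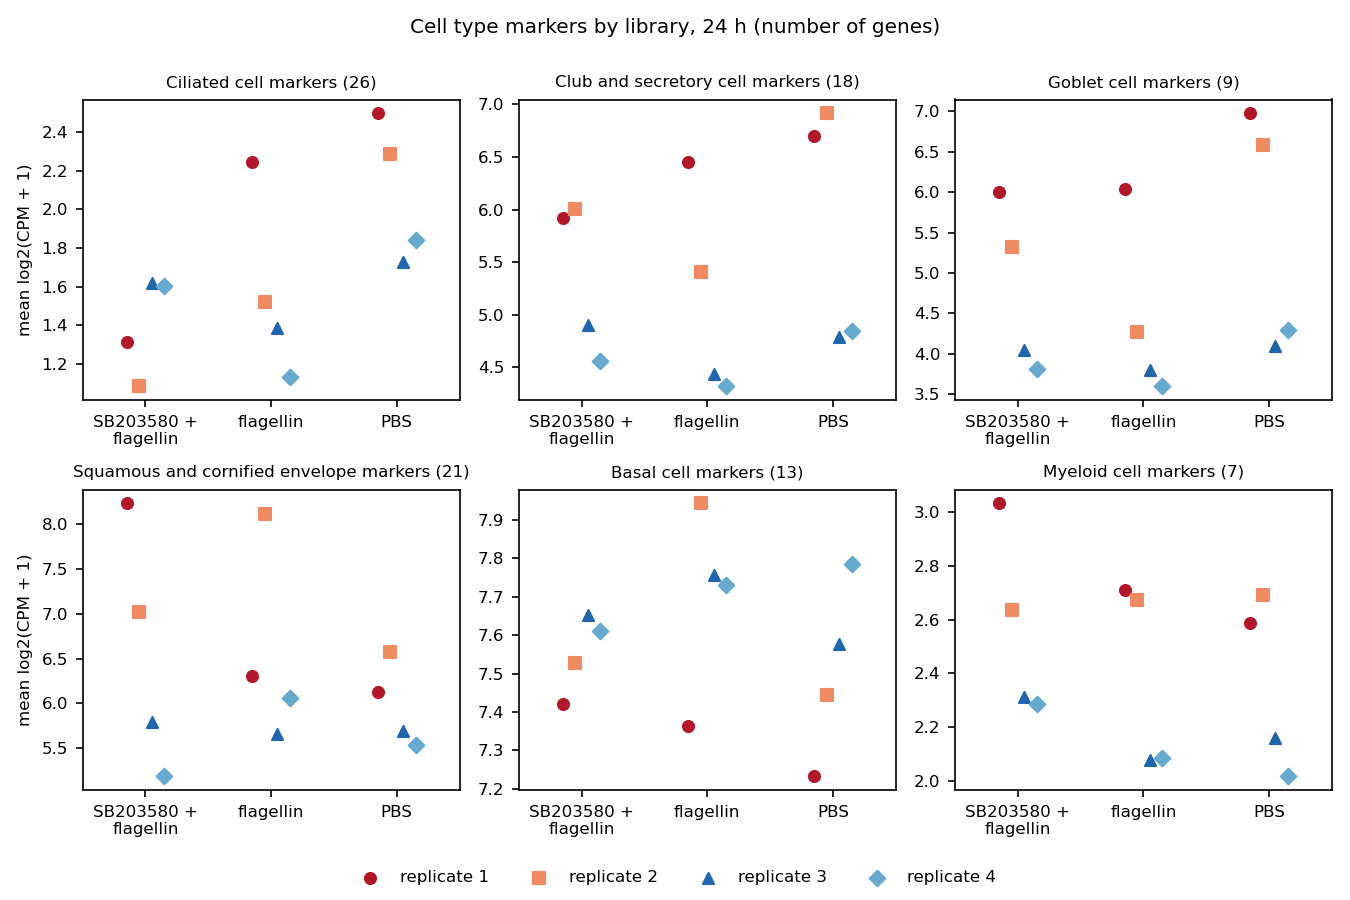
Mean log2(CPM + 1) of cell type markers (number of genes in brackets) in each library of SB203580 plus flagellin, flagellin and PBS at 24 h, with symbols for replicates 1 to 4 and a scale of its own in each panel. Replicates 1 and 2 of SB203580 plus flagellin are the lowest of their replicate numbers for ciliated markers, and replicate 1 of SB203580 plus flagellin and replicate 2 of flagellin are the highest libraries for squamous markers.

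Of the 18 tested club and secretory cell markers 14 had a negative log2 fold change, and the median was -0.40. At an unadjusted p under 0.05, 3 were lower (BPIFB1, TFF3 and CLDN10, background 4.73%) and none was higher, and none was called. SCGB1A1, the gene of the main club cell protein, stood at 0.753, 14.8, 0.0808 and 0.0279 CPM with SB203580 plus flagellin, against 4.75, 12.1, 0.0928 and 0.0311 CPM in PBS, so that replicates 3 and 4 lay at or under the floor. LCN2, an iron-scavenging antimicrobial protein, stood at 108, 50.4, 24.9 and 34.5 CPM with SB203580 plus flagellin, against 186, 207, 19.5 and 25.5 CPM in PBS. It was below its PBS library in replicates 1 and 2 and above it in replicates 3 and 4 (log2 fold change -0.61, edgeR adjusted p = 0.653). CBX8, which encodes a chromatin-binding Polycomb protein, stood at 9.51, 9.66, 11.3 and 13.4 CPM with SB203580 plus flagellin, against 7.03, 6.17, 9.28 and 8.68 CPM in PBS, with no overlap and a log2 fold change of 0.50 that did not pass (edgeR adjusted p = 0.130).

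Among the other lists, p53 target genes had 6 of 22 members higher at an unadjusted p under 0.05 (background 7.61%) and none lower, with a median of 0.11. GADD45A, which acts in growth arrest after DNA damage, stood at 101, 80.0, 31.4 and 29.8 CPM with SB203580 plus flagellin, against 37.3, 31.2, 18.7 and 19.4 CPM in PBS (log2 fold change 1.05, edgeR adjusted p = 0.0688). Of 36 cell cycle genes 31 had a negative log2 fold change, as had 47.4% of all genes tested, and the median was -0.22. Of them 3 were lower at an unadjusted p under 0.05, a share near the background of 4.73%. CCND1, which encodes cyclin D1, stood at 456, 734, 681 and 712 CPM with SB203580 plus flagellin, against 818, 742, 820 and 1176 CPM in PBS (log2 fold change -0.45, edgeR adjusted p = 0.195). In the urokinase and matrix protease list, the metalloproteinase inhibitor gene TIMP1 and F3 were lower at an unadjusted p under 0.05. F3, which encodes tissue factor, the cell-surface starter of coagulation, stood at 2575, 2695, 2626 and 2495 CPM with SB203580 plus flagellin, against 4007, 3372, 3154 and 3600 CPM in PBS. These F3 groups did not overlap, and the log2 fold change was -0.44 (edgeR adjusted p = 0.177).

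The 2 sets of replicates were compared by testing the difference between their fold changes. All 28 called genes had a positive log2 fold change in replicates 1 and 2 and in replicates 3 and 4, and 13 of them were called in replicates 1 and 2 alone. No gene passed the test of the difference between the sets (edgeR, 0% of 14172, with 781 at an unadjusted p under 0.05, and 3 genes called by DESeq2). CYP1B1 had a log2 fold change of 2.51 in replicates 1 and 2 and of 1.98 in replicates 3 and 4, and CASP1 had 1.12 and 1.41. CD83 had 1.89 and 0.81, and RTN4RL1 had 1.20 and 0.48.

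**Figure D4:**
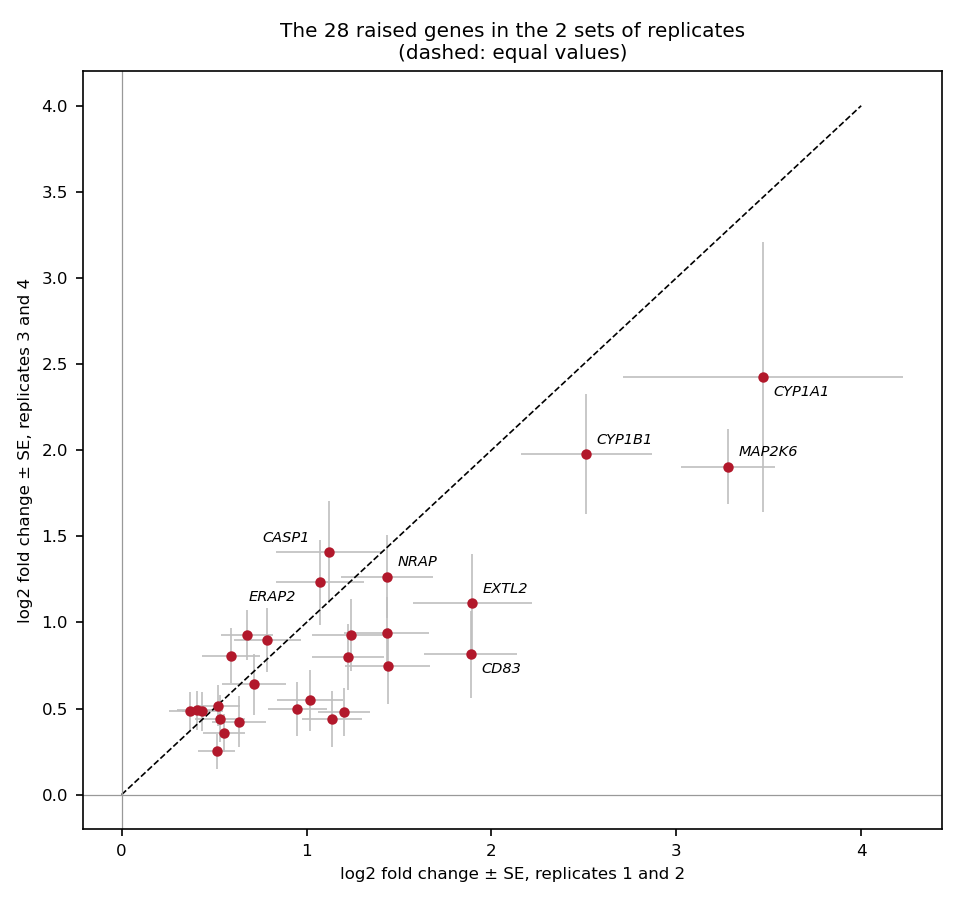
Log2 fold change ± SE of SB203580 plus flagellin over PBS at 24 h for the 28 raised genes, in replicates 1 and 2 (horizontal axis) and in replicates 3 and 4 (vertical axis), with a dashed line at equal values. All points lie above 0 on both axes, and the genes with the largest changes lie below the line. The genes were called on these same libraries.

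The same genes were read in the flagellin libraries of 24 h. These comparisons share libraries with the one above, so the values stand side by side and are not independent. CYP1A1 stood at 10.3, 8.02, 3.73 and 2.67 CPM with flagellin alone, near the PBS values, and its log2 fold change was 3.11 for SB203580 plus flagellin over flagellin (edgeR adjusted p = 0.0510) and -0.10 for flagellin over PBS (0.993). CYP1B1 stood at 45.2, 40.3, 29.0 and 25.8 CPM with flagellin alone, a log2 fold change of 0.32 ± 0.26 for flagellin over PBS (SE, edgeR adjusted p = 0.973). It was the 1 gene called between SB203580 plus flagellin and flagellin (0.00706% of genes tested), with a log2 fold change of 1.93 (edgeR adjusted p = 0.0492). That call was lost without the block, where 0 genes were called by edgeR, 405 had an unadjusted p under 0.05 and DESeq2, with the block, called 179. It was also lost with a block shared by both times, in the compared groups alone, with no filter, and when replicate 1, 2 or 3 of SB203580 plus flagellin or replicate 2 or 3 of flagellin was left out. MAP2K6 stood at 0.763, 1.04, 3.76 and 4.40 CPM with flagellin alone, and its log2 fold changes were 2.42 over flagellin (edgeR adjusted p = 0.0510) and 0.09 for flagellin over PBS.

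For other genes flagellin alone lay between the groups by log2 fold change, though not in every library. S100A12 stood at 1115, 846, 299 and 378 CPM with flagellin, in replicate 4 above its level with SB203580 plus flagellin. Its log2 fold changes were 0.34 for SB203580 plus flagellin over flagellin and 0.76 for flagellin over PBS. CD83 had 0.40 and 0.93 in the same comparisons, IRF1 had 0.22 and 0.49, and EXTL2 had 0.77 and 0.69. No gene was called between flagellin and PBS at 24 h (edgeR, 0% of 14172, with 537 at an unadjusted p under 0.05, and 4 genes called by DESeq2).

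**Figure D5:**
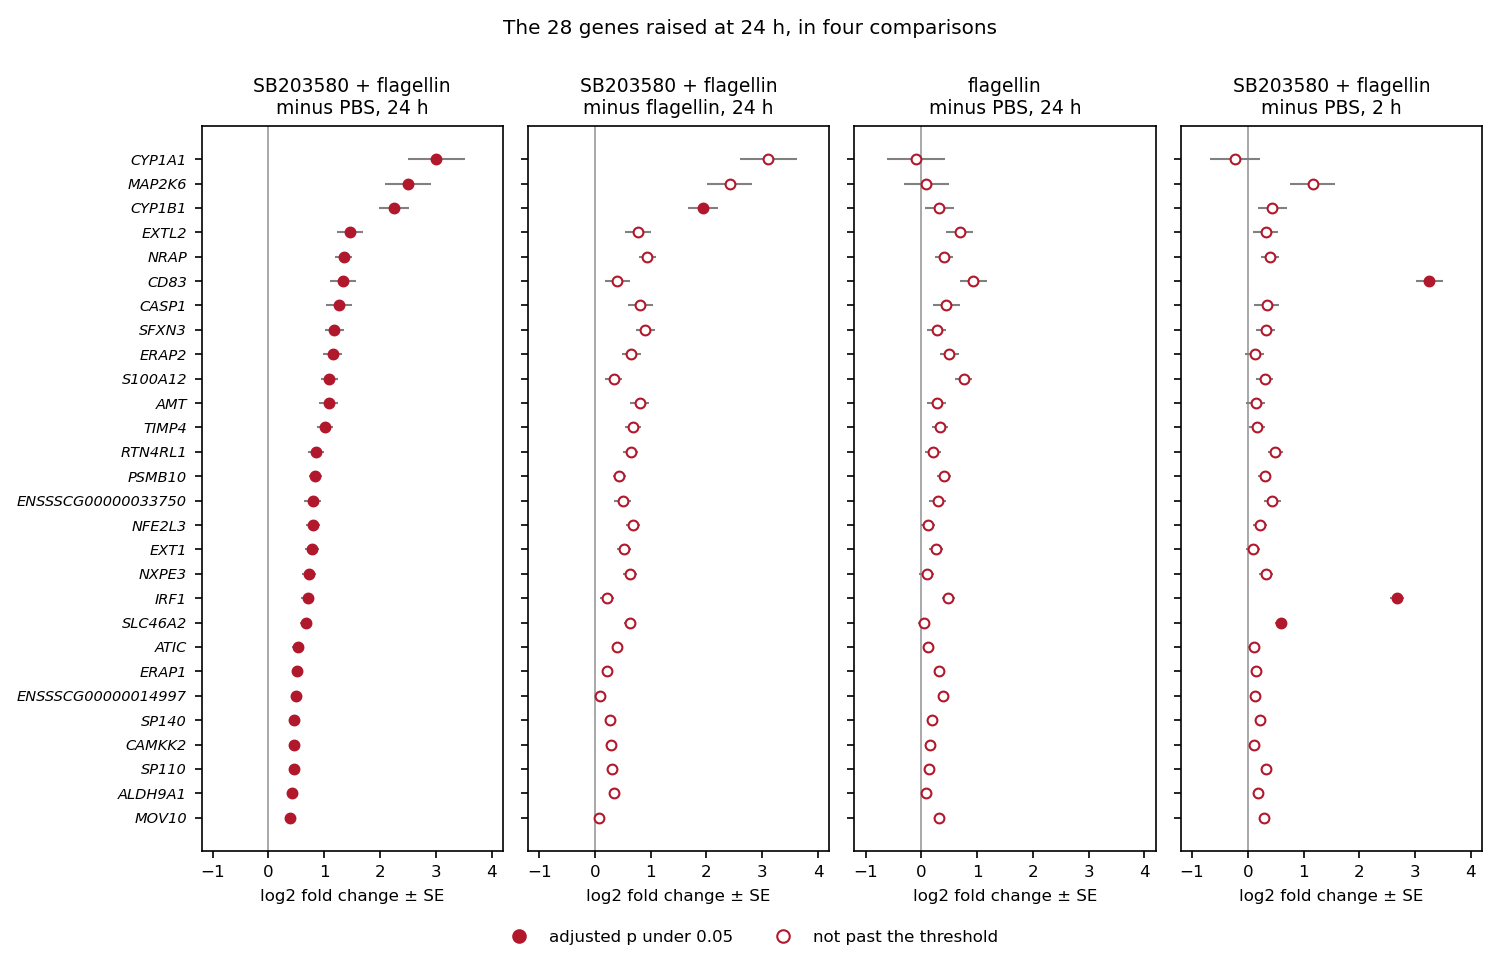
Log2 fold change ± SE of the 28 raised genes in 4 comparisons: SB203580 plus flagellin over PBS, SB203580 plus flagellin over flagellin and flagellin over PBS at 24 h, and SB203580 plus flagellin over PBS at 2 h, with filled points past an adjusted p of 0.05. The first 3 share libraries. CYP1A1 and MAP2K6 lie near 0 and CYP1B1 at 0.32 for flagellin over PBS, and CD83 and IRF1 lie farthest to the right at 2 h.

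At 2 h SB203580 plus flagellin differed from PBS in 228 genes (1.61% of genes tested, 120 higher and 108 lower), in libraries separate from those of 24 h, and 26 genes were called there without the block. Among the 28 genes raised at 24 h, 3 were also called at 2 h, namely CD83, IRF1 and SLC46A2. CD83 stood at 15.2, 17.2, 18.1 and 21.5 CPM at 2 h with SB203580 plus flagellin, against 1.60, 2.63, 1.82 and 1.50 CPM in PBS (log2 fold change 3.26, edgeR adjusted p = 1.58e-06). IRF1 stood at 126, 144, 87.9 and 105 CPM at 2 h with SB203580 plus flagellin, against 24.3, 21.1, 14.5 and 13.5 CPM in PBS (log2 fold change 2.68, edgeR adjusted p = 5.98e-09).

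The log2 difference from PBS was lower at 24 h than at 2 h for 11 genes and higher for none, which is 0.0776% of the genes tested (interaction with time, edgeR). Without the block 0 genes were called and 248 had an unadjusted p under 0.05. Genes with the smallest adjusted p included IRF1 (24 h minus 2 h, -1.97 on the log2 scale, adjusted p = 5.27e-05), the IkB protein gene NFKBID (-2.15, 0.000216), TNFAIP3 (-1.85, 0.000216) and KLHL38 (-2.52, 0.0100). CD83 passed as well (-1.92, edgeR adjusted p = 0.0423). NFKBID stood at 29.4, 35.2, 14.8 and 17.8 CPM at 2 h with SB203580 plus flagellin, against 6.69, 4.57, 3.68 and 5.03 CPM in PBS. At 24 h it was at 8.90, 9.69, 8.27 and 8.11 CPM with SB203580 plus flagellin, against 9.18, 8.63, 7.86 and 7.65 CPM in PBS, and the groups overlapped.

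The AHR targets CYP1A1 and CYP1B1 had the opposite sign in this interaction without passing it. At 2 h, CYP1B1 stood at 290, 252, 830 and 658 CPM with SB203580 plus flagellin, against 126, 195, 878 and 463 CPM in PBS, so that the groups overlapped and the PBS values were all above those of PBS at 24 h. The interaction was 1.82 for CYP1B1 (edgeR adjusted p = 0.122) and 3.24 for CYP1A1 (0.165). CYP1A1 stood at 54.9, 53.9, 291 and 191 CPM at 2 h with SB203580 plus flagellin, against 20.1, 103, 547 and 153 CPM in PBS. MAP2K6 stood at 1.99, 1.95, 11.99 and 12.9 CPM at 2 h with SB203580 plus flagellin, against 1.86, 2.57, 3.08 and 2.54 CPM in PBS. At that time the higher values lay in replicates 3 and 4, and the log2 fold change of 1.17 did not pass (edgeR adjusted p = 0.193).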

How the data were processed

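The 24 RNA libraries were sequenced in paired ends, and the deposited table holds raw read counts per gene. Reads were handled with STAR 2.4.0a and with featureCounts from Subread 1.4.6-p1, per the submitters' processing notes, which name the mouse build GRCm38 although the identifiers are those of pig genes. The pig assembly, strand use and handling of multiply mapped reads were not given in the sources used here. Coordinates are those of the deposited table. Of its 31868 features, 25880 were pig genes; the other 5988 took at most 0.00514% of the counts of a library at 24 h and were left out. Symbols came from an identifier table for 14857 genes and, for 1606 more, from the position of a single RefSeq gene (Sscrofa11.1) overlapping by at least 0.5 of the spans; 92.6% of 12808 genes named both ways had the same symbol or a synonym.

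Counts were scaled by TMM and filtered by filterByExpr (edgeR 4.0.16, R 4.3.3), which left 14172 genes. The fit was edgeR's robust quasi-likelihood fit on all 24 libraries with 6 groups and the replicate number within each time as a block (12 residual degrees of freedom); the comparison of the 2 sets of replicates used a fit with 8. Groups were taken from the sample descriptions. Levels are CPM on TMM-adjusted library sizes (TMM factors 0.906 to 1.07 in the 8 libraries), and n = 4 per group throughout. Tests were two-sided. The matching was checked by correlating deviations from the group means: same-numbered libraries of the 2 groups gave 0.653 to 0.727, about as high as the other number of the same set, and numbers of different sets were negative. The numbers thus mark at least the 2 sets. No libraries of a group were duplicates (chi-square per gene 14.5 to 295). The procedure was tested on simulated data.

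Genes were named by a rule: the 15 raised and 15 lowered with the largest change among calls with a symbol, the same direction in 4 of 4 pairs and a mean of at least 1 CPM; up to 4 called members of each gene list by smallest adjusted p; a panel of 16 genes whatever their result; and the 5 top genes of each interaction that had calls. Some of the genes so chosen are not reported here. Further genes named as list members were chosen after their values were seen. The members, the 34 pathway lists and the 11 cell type lists were chosen with earlier results of these data known. Alternatives were other blocks, scaling, filter, samples and DESeq2 1.42.0, and leaving out libraries.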

Additional observations from a re-analysis of the deposited data

Results flagged for a closer look

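Single libraries stood far from the other 3 of their group in 4 of 92 groups looked at, and chance marks about 1 group in 20. IL6 was at 0.452 CPM in replicate 2 of SB203580 plus flagellin, where the others had 0.108 to 0.112 CPM. SCGB1A1 was at 14.8 CPM in the same library, where the others had 0.0279 to 0.753 CPM. FOXJ1 was at 6.96 CPM in replicate 1 of SB203580 plus flagellin, where the others had 3.46 to 3.65 CPM. ALDH9A1 was at 65.8 CPM in PBS replicate 3, where the others had 54.7 to 56.1 CPM.

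The difference from PBS was not the same at 24 h as at 2 h for the named genes CD83 (24 h minus 2 h, -1.92 on the log2 scale), IRF1 (-1.97), TNFAIP3 (-1.85), NFKBID (-2.15) and KLHL38 (-2.52), by the interaction test in edgeR with adjusted p-values from 5.27e-05 to 0.0423.

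Features of the table that are not pig genes had 17.5 CPM in replicate 2 of SB203580 plus flagellin at 24 h, where the highest PBS library of that time had 10.1 CPM. The highest flagellin library of that time, replicate 3, had 16.7 CPM.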

How the results depend on the processing

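The count of 28 genes for SB203580 plus flagellin against PBS at 24 h rests on matched libraries. With no replicate block it was 1, with a replicate block shared by both times 9, with the set of replicates in its place 65 (59 raised, 6 lowered), in a fit of the compared groups only 1, and with DESeq2 255 (187 raised, 68 lowered). Replicates 1 and 2 alone gave 6 lowered genes, replicates 3 and 4 alone 1 call, and leaving out replicates 1 and 2 of SB203580 plus flagellin, chosen after seeing the data, 0. Leaving out a single library gave 6 to 44 calls (6 to 35 raised, 0 to 9 lowered). RLE scaling moved the median of all genes to 0.0118, beside 0.0102 with TMM. Of the 28, RLE scaling and DESeq2 kept 28, the set term 27, no filter 26, the shared block 8, and no block or the compared groups alone 1. The cause of these differences was not tested.

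The interaction with time had 11 calls: 0 with no replicate block, 5 in the compared groups only, 55 with DESeq2, 4 in replicates 1 and 2 alone, 4 when replicates 1 and 2 of SB203580 plus flagellin were left out at 24 h, and 8 to 18 with a library left out. The difference between the 2 sets had 0 calls, 3 with DESeq2 and 0 to 1 with a library left out. SB203580 plus flagellin against flagellin at 24 h had 1 call: 0 with no block, the shared block, the compared groups only, no filter, or without replicates 1 and 2, 13 with the set term, 179 with DESeq2, 36 in replicates 1 and 2 alone, and 0 to 18 with a library left out. Flagellin against PBS at 24 h had 0 calls, 4 with DESeq2, 1 in replicates 1 and 2 alone, and 0 with any library left out. SB203580 plus flagellin against PBS at 2 h had 228 calls: 26 with no block, 114 with the shared block, 20 in the compared groups only, 500 with DESeq2, 49 in replicates 1 and 2 alone, 81 in replicates 3 and 4 alone, and 61 to 210 with a library left out.

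Signs turned for uncalled genes. The log2 fold change of PTGS2 was -0.058 in the compared groups only, -0.27 in replicates 3 and 4 alone, -0.035 without replicates 1 and 2 of SB203580 plus flagellin, and -0.40 to 0.35 with a library left out. LCN2 was at 0.40 in replicates 3 and 4 alone, 0.085 without replicates 1 and 2 of SB203580 plus flagellin, and -0.95 to 0.12 with a library left out. SCGB1A1 was at 0.41 without replicates 1 and 2 of SB203580 plus flagellin and -2.63 to 0.67 with a library left out. TLR5 was at 0.062 in replicates 3 and 4 alone and at -0.24 to 0.044 with a library left out. EIF1AY gives no value in replicates 3 and 4 alone, which hold no count of it. Genes near the floor, such as IL6, are limited by depth.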
